A study of Mus musculus with 2 samples.

Results

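The genes of 3 families of phase II conjugating enzymes, the glutathione S-transferases, the UDP-glucuronosyltransferases and the sulfotransferases, were described across the cells of mouse small intestine. A gene was a member if its symbol began with Gsta, Gstm, Gstp, Gstt, Gsto, Gstk, Mgst, Ugt1a, Ugt2a, Ugt2b or Sult and a digit followed where the family is numbered, which took 72 of the 56980 genes in the deposited gene lists. These were 26 glutathione transferases (3 of them microsomal), 19 UDP-glucuronosyltransferases and 27 sulfotransferases, and 7 of the 72 symbols carry a pseudogene mark. The pseudogene Gstp-ps has no digit in its symbol and was left out. In the kept cells 45 members reached 20 UMIs (unique molecular identifiers, tags that mark single captured RNA molecules), 6 had 1 to 19 UMIs and 21 had none.

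Phase II enzymes join a polar group to a reactive or fat-soluble compound so that it can be exported. Glutathione transferases use glutathione and are cytosolic, mitochondrial (Gstk1) or bound to membranes (Mgst1, Mgst2 and Mgst3). UDP-glucuronosyltransferases of the endoplasmic reticulum use UDP-glucuronic acid, and cytosolic sulfotransferases use the sulfate donor PAPS. Enterocytes, the absorptive cells of the villus, are known for conjugating dietary compounds, drugs, steroids and bile acids, and several of these genes are known targets of Nfe2l2 (NRF2) or of the aryl hydrocarbon receptor Ahr.

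Droplet RNA sequencing had been run on 1 library labelled model and 1 library labelled control. The series title names simulated microgravity, radiation and a preparation called CB001, but the labels state neither the treatment behind the word model nor strain, sex, age, number of mice or gut segment, and no library labelled with CB001 was analysed here. For both libraries the mesentery and Peyer's patches had been removed before digestion with EDTA, collagenase A and DNase I. The model library held 76701215 UMIs in 11468 barcodes and the control library 61370270 UMIs in 10259 barcodes. After filtering, 7913 model cells and 7329 control cells were kept, with median depths of 3761 and 3636 UMIs and median mitochondrial shares of 5.38% and 10.8%. With 1 library per group there was no replicate error and no test, so a condition cannot be told apart from a mouse, a preparation or the stretch of gut taken. Every interval below covers counting error only, except those of medians over members. Those are order-statistic intervals of the median, which treat members as separate draws, although members share libraries and are not replicates.

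The kept cells formed 33 clusters, in which the members took no part because they were kept out of the genes used for clustering. Gm3776, a near copy of Gsta1, is no member by its symbol and was not kept out. The labelled tissue was borne out by the markers: intestinal epithelial, immune and stromal classes were all found. Each name carries "-like", since it rests on marker transcripts alone. Clusters that did not meet the naming rule held 17.04% of model cells and 24.56% of control cells. Levels are given as CPM, the UMIs of a gene scaled to a fixed total (counts per mega-UMI) of all UMIs of that class in a library, and are compared within a gene and not between genes. A member was counted as higher in the model library when its model over control ratio was 1.5 or more, and as lower at the inverse of this limit, where the exact binomial interval also left out 1 and the libraries together had at least 20 UMIs.

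Many members had their highest level in enterocyte-like cells. No share of all genes is given beside the counts by class that follow, so they describe the members only. Among the 13 named classes with at least 100 cells in the 2 libraries together, 23 of the 45 members with 20 UMIs or more had their highest pooled CPM in enterocyte-like cells, 5 in fibroblast-like, 5 in tuft-like, 4 in enteroendocrine-like, 4 in crypt stem or transit-amplifying-like, 2 in goblet-like, 1 in blood endothelial-like and 1 in NK or innate lymphoid-like cells. Sult1b1, which sulfates phenols and thyroid hormone, had 792 CPM in model and 681 CPM in control enterocyte-like cells, and 36.6 CPM in T cell-like cells of both libraries together. Ugt2b34, a glucuronosyltransferase, had 491 CPM in model and 415 CPM in control enterocyte-like cells, against a pooled 31.3 CPM in T cell-like cells. T cell-like cells should lack these genes, so levels as low as theirs were not read as expression, and where such UMIs come from was not tested. Of the UMIs in named cells, the epithelial classes held 96.1% for Sult1b1, 95.98% for Ugt2b34, 98.0% for Gsta1 and 97.2% for Gsta4. These classes also held most UMIs of all genes together. They had 36460806 UMIs in model and 32551580 in control, against 16860587 and 12203535 in the other named classes.

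**Figure D1:**
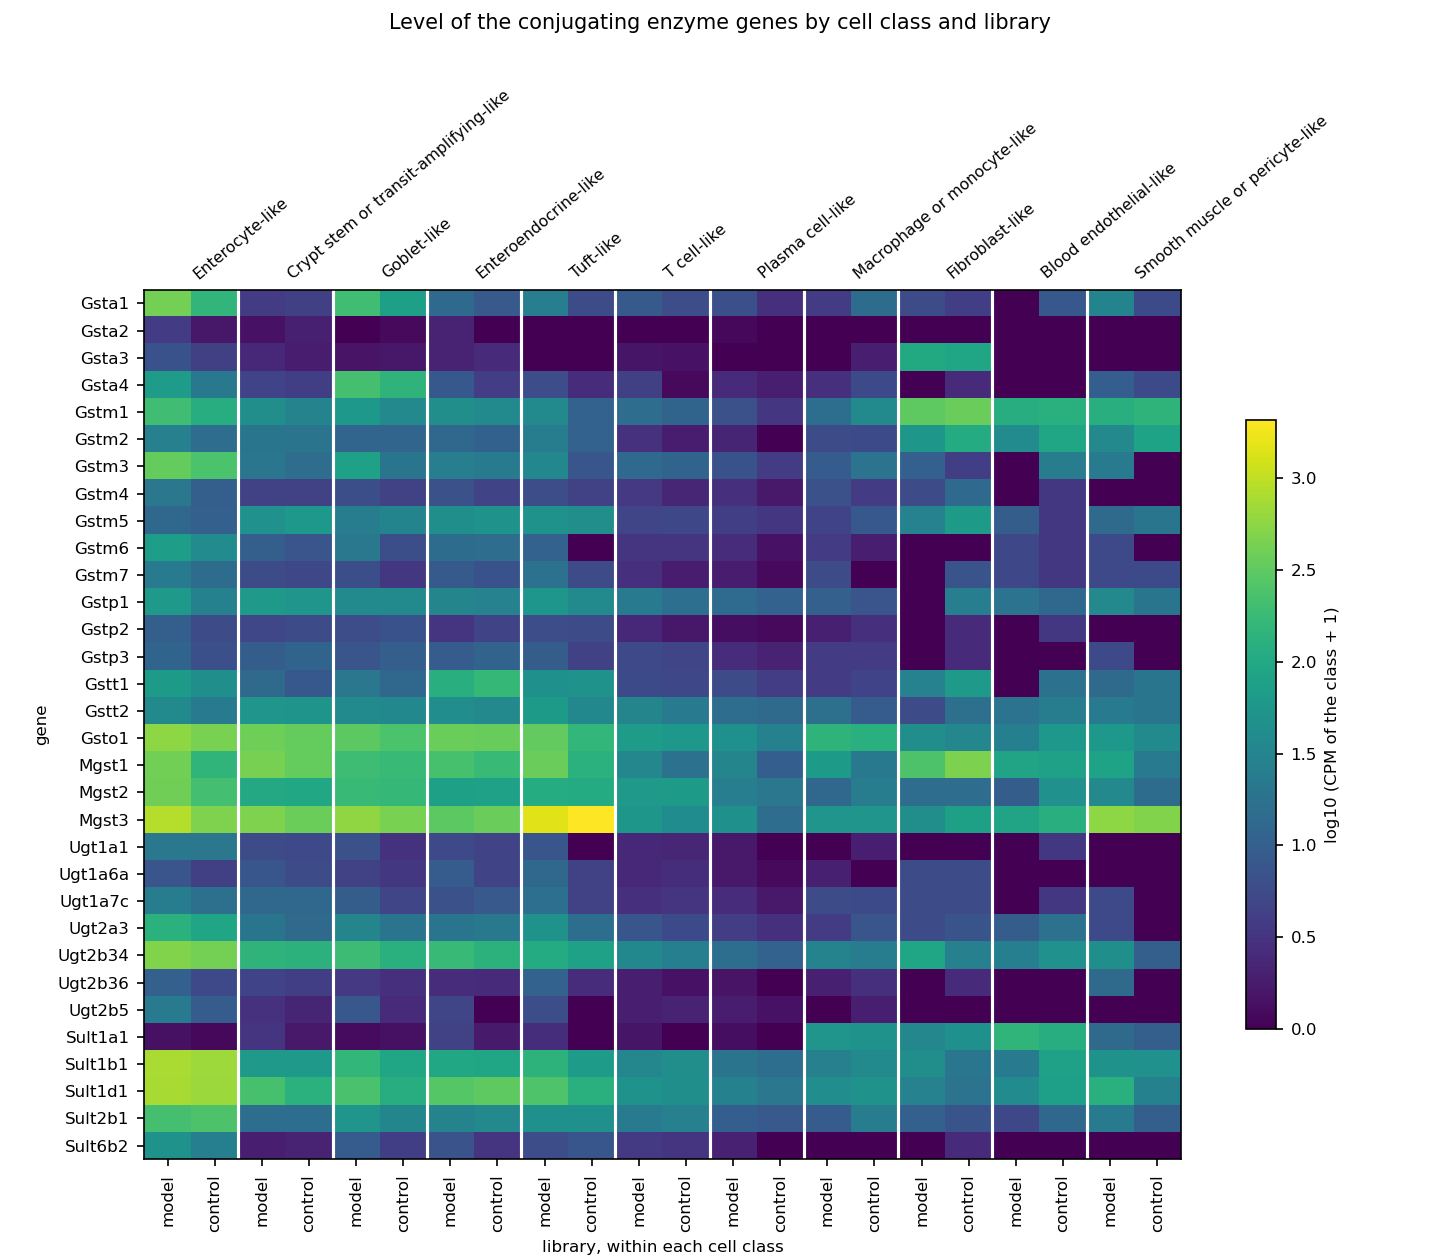
Heat map of the 32 members named by level or ratio (rows) in 11 cell classes, each with the model library left of the control library (columns). Colour gives log10 of the class CPM plus 1. Most rows are brightest in enterocyte-like cells, whereas Gsta4 peaks in goblet-like, Mgst3 in tuft-like, Gstt1 in enteroendocrine-like, Sult1a1 in blood endothelial-like and Gsta3 in fibroblast-like cells.

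Several members had a higher level in another class than in enterocyte-like cells in both libraries. Mgst3, a membrane-bound transferase and peroxidase, had 1454 CPM in 60 model and 2071 CPM in 77 control tuft-like cells, the chemosensory cells of the epithelium, against 875 CPM in model and 467 CPM in control enterocyte-like cells. Gsta4, which detoxifies the lipid peroxidation product 4-hydroxynonenal, had 219 CPM in model and 142 CPM in control goblet-like cells, the mucus cells, and 65.0 CPM in model and 20.7 CPM in control enterocyte-like cells. Gstt1, a theta-class transferase, had 123 CPM in model and 161 CPM in control enteroendocrine-like cells, the hormone-secreting cells of the gut. For each of these 3 genes the class named first was the highest in both libraries among the 13 classes of at least 100 cells. In the 4 model and 6 control mesothelial-like cells, a class under that size, Gstt1 had 153 CPM (10 UMIs) in model and 193.5 CPM (14 UMIs) in control, above its enteroendocrine-like levels, and Gsta4 had 107 CPM (7 UMIs) in model and 166 CPM (12 UMIs) in control.

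The stromal pattern was clearest for Gsta3, Gstm1, Gstm2 and Sult1a1. Gsta3, an alpha-class transferase, had 104 CPM (22 UMIs) in 53 model and 90.7 CPM (57 UMIs) in 113 control fibroblast-like cells, and 5.90 CPM in model and 3.30 CPM in control enterocyte-like cells. Gstm1, a mu-class transferase, had 310 CPM in model and 360 CPM in control fibroblast-like cells. Gstm2 of the same class had 56.4 CPM in model and 110 CPM in control fibroblast-like cells. Over both libraries together Gstm1 had 347 CPM in fibroblast-like and 160 CPM in enterocyte-like cells. The pooled level of Mgst1 was 401 CPM in fibroblast-like, 387 CPM in crypt stem or transit-amplifying-like and 284 CPM in enterocyte-like cells. Sult1a1, the phenol sulfotransferase, was the member with the lowest epithelial share among the 32 named, 18.97% of its UMIs in named cells. It had 146 CPM in 72 model and 114 CPM in 68 control blood endothelial-like cells, 52.9 CPM in model and 47.4 CPM in control macrophage or monocyte-like cells, and 0.404 CPM (5 UMIs) in model and 0.188 CPM (2 UMIs) in control enterocyte-like cells. In 47 model and 34 control dendritic cell-like cells it had 51.4 CPM (18 UMIs) and 80.45 CPM (23 UMIs). Sult1a1 thus had higher levels in these endothelial and immune classes than in enterocyte-like cells.

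The 21 members without a UMI included 18 sulfotransferases, among them all 8 Sult2a genes without a pseudogene mark, which act on bile acids and steroids in liver, and 3 glucuronosyltransferases (Ugt2a1, Ugt2a2 and Ugt2b37). A count of 0 over all kept cells allows up to 0.0453 CPM in the model library and 0.0566 CPM in the control library, at 3 UMIs per library. Gstt4, Ugt1a8, Ugt1a10, Ugt2b1, Sult1e1 and Gstm2-ps1 had fewer than 20 UMIs in the 2 libraries together. These 27 members are not described further.

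The members differed strongly between the 4 clusters of enterocyte-like cells, and did so in both libraries. Clusters are numbered 0, 13, 14 and 18 here in the order in which genes of the villus bottom fell and genes of the villus tip rose. The 9 villus bottom genes (Reg3b, Plac8 and others) summed to 49702, 15065, 3962 and 1299 CPM along this order in the model library and to 32578, 18503, 13998 and 4973 CPM in the control library. The 12 villus tip genes (Ada, Nt5e and others) summed to 3509, 6169, 11211 and 26527 CPM in the model library and to 3780, 5713, 7119 and 21042 CPM in the control library. All 72 members together took 0.715%, 0.448%, 0.268% and 0.163% of the UMIs of these clusters in the model library, and 0.701%, 0.463%, 0.277% and 0.158% in the control library. The share thus fell at each step, to nearly the same values in both libraries. Cluster 0 also stood apart in depth and mitochondrial share. Median depth per cell was 15449, 5650, 3552 and 4283 UMIs in model and 17382, 6222, 3628 and 3936 UMIs in control, and the median mitochondrial share was 8.17%, 20.1%, 21.5% and 21.1% in model and 8.996%, 18.7%, 18.99% and 17.6% in control. The 13 genes of the distal intestine summed to 3598, 4128, 4432 and 5965 CPM in model and to 3165, 3787, 4544 and 6213 CPM in control. The 15 genes of the proximal intestine did not fall along the order, with 50447, 41614, 42612 and 53109 CPM in model and 47448, 41342, 39581 and 52349 CPM in control. The part of cell quality and of position along the gut in the courses below was not tested.

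Of the 33 members with at least 50 UMIs in cluster 0 over both libraries, 30 had their highest of the 4 levels in cluster 0 in the model library and 28 in the control library. Of the 8710 genes with as many UMIs there, 45.25% in model and 49.39% in control were highest in cluster 0. Their level in cluster 18 had a median of 7.09% of that in cluster 0 in the model library and 7.84% in the control library. The same median over these 8710 genes was 54.95% in model and 54.93% in control. In cluster 18, 19 of the 33 members in model and 18 in control had less than 10% of their cluster 0 level, 14 of them in both, whereas 10.3% of all genes in model and 6.69% in control did. Both the 33 members and the 8710 genes were chosen by their UMIs in cluster 0. A gene low there but high in another cluster could not enter, which favours a highest level in cluster 0. In cluster 18, 1 UMI was 1.75 CPM in model and 0.576 CPM in control, so low levels there rest on few UMIs. These clusters were drawn from the same cells, so the values describe them and are no test.

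Several glutathione transferases had a steep course. Gsta1 had 537, 145, 22.4 and 1.75 CPM in clusters 0, 13, 14 and 18 of the model library, and 468, 74.9, 13.4 and 3.46 CPM in the control library. Gstm3 had 412, 175, 67.2 and 10.5 CPM in the model library and 590, 239, 35.1 and 4.03 CPM in the control library. Mgst1, which protects membranes from lipid peroxides, had 515, 143, 30.8 and 22.7 CPM in the model library and 320, 124, 68.6 and 24.2 CPM in the control library. The last cluster thus held 0.326% of the cluster 0 level of Gsta1 in model and 0.740% in control. It held 2.55% and 0.683% of that of Gstm3, and 4.41% and 7.56% of that of Mgst1. These shares rest on few UMIs in cluster 18. In model and control they were 1 and 6 for Gsta1, 6 and 7 for Gstm3, and 13 and 42 for Mgst1.

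The sulfotransferases Sult1b1 and Sult1d1 and the glucuronosyltransferase Ugt2b34 had a shallower course. Sult1b1 had 34.1% of its cluster 0 level in cluster 18 of the model library and 29.1% in the control library, Sult1d1, which sulfates catecholamines and phenols in mice, 29.5% and 35.8%, and Ugt2b34 31.9% and 26.3%. Gsto1, an omega-class transferase with thioltransferase activity, had 79.6% in model and 58.9% in control. Sult2b1, a cholesterol sulfotransferase, had 83.3% in model and was higher in cluster 18 in control, at 144.5%. Gsto1 and Sult2b1 were the only 2 of the 33 members above 50% in both libraries. Another sulfotransferase, Sult6b2, was steep. It had 57.0, 41.3, 11.2 and 1.75 CPM in clusters 0, 13, 14 and 18 of the model library. In the control library it had 81.1, 13.2, 1.24 and 0 CPM. Its cluster 18 values rest on 1 UMI in model and 0 in control.

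**Figure D2:**
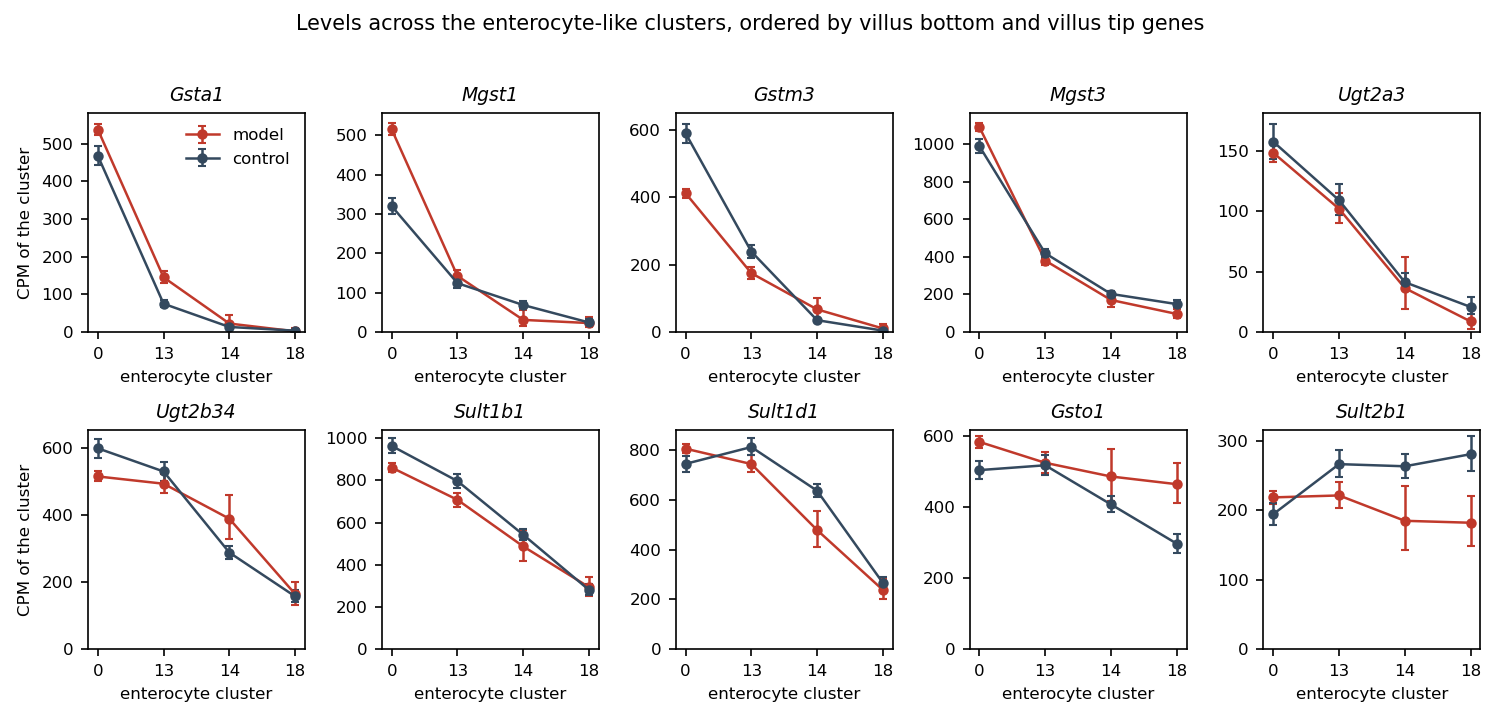
Level in CPM of the cluster (y axis, from 0) of 10 members in the enterocyte-like clusters 0, 13, 14 and 18 (x axis) of the model library (red) and the control library (dark blue). Bars are exact Poisson intervals. Gsta1, Mgst1 and Gstm3 fall steeply in both libraries and Mgst3 somewhat less. Ugt2b34, Sult1b1 and Sult1d1 fall less again, and Gsto1 and Sult2b1 least.

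Promoters of 3 members are shown to set the known response elements beside these courses. They are the steep Mgst1, Mgst3, which fell less steeply, and Sult2b1, which kept the highest share of its level in cluster 18. The windows hold 100 bases upstream of a start site, 5′ to 3′ on the gene's strand, from RefSeq on build GRCm38.p6, at chr6:138140421-138140520 (plus strand) for Mgst1, chr1:167393842-167393941 (minus strand) for Mgst3 and chr7:45742547-45742646 (minus strand) for Sult2b1. Capitals mark the antioxidant response element core TGACNNNGC, on the opposite strand, in Mgst1, and the xenobiotic response element core GCGTG in Mgst3 and Sult2b1:
Mgst1: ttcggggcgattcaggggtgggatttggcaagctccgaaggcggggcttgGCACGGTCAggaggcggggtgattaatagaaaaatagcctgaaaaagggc
Mgst3: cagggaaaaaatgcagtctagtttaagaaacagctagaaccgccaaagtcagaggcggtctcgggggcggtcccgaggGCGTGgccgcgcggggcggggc
Sult2b1: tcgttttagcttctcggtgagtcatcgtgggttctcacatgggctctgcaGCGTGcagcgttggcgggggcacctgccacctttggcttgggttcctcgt
The GCGTG core is thus present both in Mgst3, which fell along the clusters, and in Sult2b1, which kept most of its level or rose. RefSeq promoters of 300 bases were found for 57 of the 72 members. Searched on both strands, TGACNNNGC occurred in 3 of them (5.26%; Gsta3, Gstm5 and Mgst1) and in 12.47% of all 27025 promoters of that length, and GCGTG in 11 of them (19.3%) and in 32.46% of all. The 11 with GCGTG include Gsta1, which fell steeply along the clusters. A match is a description of these letters and not of binding.

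Over all enterocyte-like cells (1141 model and 1754 control), many members were higher in the model library. Of 36 members at the minimum of 20 UMIs, 21 were higher and 0 lower, beside 15.5% higher and 9.36% lower of the 11845 genes tested. Their median log2 ratio was 0.84, with an order-statistic interval of 0.54 to 0.97, against a median of 0.10 over all genes. With cells limited to 10% mitochondrial UMIs, 6 of 35 members were higher and 0 lower, beside 2.87% higher and 6.61% lower of all genes, and the median was 0.28 against -0.04 over all genes. The higher members came from the alpha (4 of 4 at the minimum), mu (5 of 7), pi (3 of 3), theta (1 of 3) and microsomal (3 of 3) glutathione transferases, from Ugt1a (2 of 4) and Ugt2b (2 of 5), and from the sulfotransferases (1 of 4).

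Among the glutathione transferases, Gsta1 had 418 CPM in model and 153 CPM in control enterocyte-like cells, a ratio of 2.74 (2.59 to 2.90). Gsta4 had 65.0 and 20.7 CPM in model and control, a ratio of 3.14 (2.70 to 3.66). Gsta2 had the highest ratio, 4.29 (1.88 to 11.5), from only 35 model and 7 control UMIs. Gsta3 had a ratio of 1.79 (1.18 to 2.76).

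In the mu class, Gstm1 had 200 CPM in model and 114 CPM in control (ratio 1.75, 1.63 to 1.87), and Gstm2, Gstm4, Gstm6 and Gstm7 had ratios of 1.85, 2.19, 1.79 and 1.62. Gstm3 (335 and 235 CPM, ratio 1.42) and Gstm5 (1.31) stayed under the limit. The pi-class genes Gstp1, Gstp2 and Gstp3 had ratios of 2.12, 1.90 and 1.98. Gstt2 was higher at 1.69, whereas Gstt1 (1.45), Gstt3 (1.06), Gsto1 (1.27) and Gstk1 (1.36) were not counted.

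All 3 microsomal transferases were higher. Mgst1 had 403 CPM in model and 145 CPM in control enterocyte-like cells (ratio 2.78, 2.62 to 2.94), Mgst2 398 and 212 CPM (1.88, 1.79 to 1.98) and Mgst3 875 and 467 CPM (1.87, 1.81 to 1.94). Together this family summed to 1675 CPM in model and 823 CPM in control.

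Ratios were smaller for the glucuronosyltransferases and sulfotransferases with the most UMIs. Ugt2b34 had a ratio of 1.18 (1.14 to 1.23) and Ugt2a3, with 129 CPM in model and 87.5 CPM in control, one of 1.48 (1.36 to 1.60). Ugt2b5 (2.80, 2.20 to 3.60), Ugt2b36 (2.10), Ugt1a6a (1.962) and Ugt1a7c (1.55) were higher, and Ugt1a1, the bilirubin-conjugating enzyme, had 20.3 CPM in model and 19.5 CPM in control. Sult1b1 and Sult1d1 both had a ratio of 1.16, Sult2b1 had 216 CPM in model and 248 CPM in control (0.873, 0.827 to 0.921), and Sult6b2 was higher at 1.92 (1.66 to 2.21). The 27 sulfotransferases summed to 1816 CPM in model and 1606 CPM in control.

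The 2 libraries did not hold the same enterocyte-like cells. Cluster 0 was 46.0% of them in model (525 cells) and 8.61% in control (151 cells), cluster 13 was 36.1% and 22.0%, cluster 14 was 7.98% and 46.6%, and cluster 18 was 9.90% and 22.8%. Villus bottom genes were higher in model (6 of 9 higher, 0 lower), and villus tip genes lower (0 of 11 higher, 7 lower). Genes of the proximal intestine were more often higher (5 of 13, 1 lower) and those of the distal intestine lower (4 of 10, 0 higher). Of all genes tested in this class, 15.5% were higher and 9.36% lower. Pdx1, a duodenal transcription factor, had 58 UMIs in model and 7 in control, and the ileal bile acid transporter Slc10a2 had 4 and 51. Mitochondrial transcripts were a median of 15.4% of UMIs per cell in model and 17.985% in control enterocyte-like cells.

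Within single clusters, fewer members differed between the libraries. In cluster 0, 1 of 35 members at the minimum was higher and 0 lower, beside 2.34% higher and 2.85% lower of all genes, and the median log2 ratio of the members was -0.0032 (-0.16 to 0.16). That gene was Mgst1, with 515 CPM in model and 320 CPM in control (ratio 1.61, 1.501 to 1.73). Gsta1 had 537 and 468 CPM and Mgst3 1092 and 990 CPM in model and control cells of cluster 0. Gstm3 had 412 CPM in model and 590 CPM in control, in the opposite direction to the whole class.

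In cluster 13, which both libraries held in like numbers (412 model and 385 control cells), 6 of 32 members were higher and 0 lower, beside 3.13% higher and 3.37% lower of all genes, with a median log2 ratio of 0.04 (-0.14 to 0.35). The 6 were Sult6b2 (41.3 CPM in model and 13.2 CPM in control, ratio 3.14, 2.13 to 4.72), Gsta4 (2.47, 1.58 to 3.97), Ugt2b5 (2.17, 1.28 to 3.81), Gsta1 (145 CPM in model and 74.9 CPM in control, 1.94, 1.63 to 2.31), Gstm4 (1.86) and Ugt1a7c (1.59). Mgst1, Mgst2 and Mgst3 were not among them. When the CPM of the 4 clusters was averaged with the same weights in both libraries, an alternative chosen after seeing the data, 5 of 36 members were higher and 2 lower, beside 4.9% higher and 6.86% lower of all genes, and the median log2 ratio was 0.10 against -0.03 over all genes. In cluster 14 alone, with only 91 model cells against 818 control cells, 4 of 21 members were higher and 3 lower, beside 6.25% higher and 6.2% lower of all genes. There Mgst1 was lower, with 30.8 CPM (11 UMIs) in model and 68.6 CPM (221 UMIs) in control (0.449, 0.221 to 0.819), the other way from cluster 0.

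**Figure D3:**
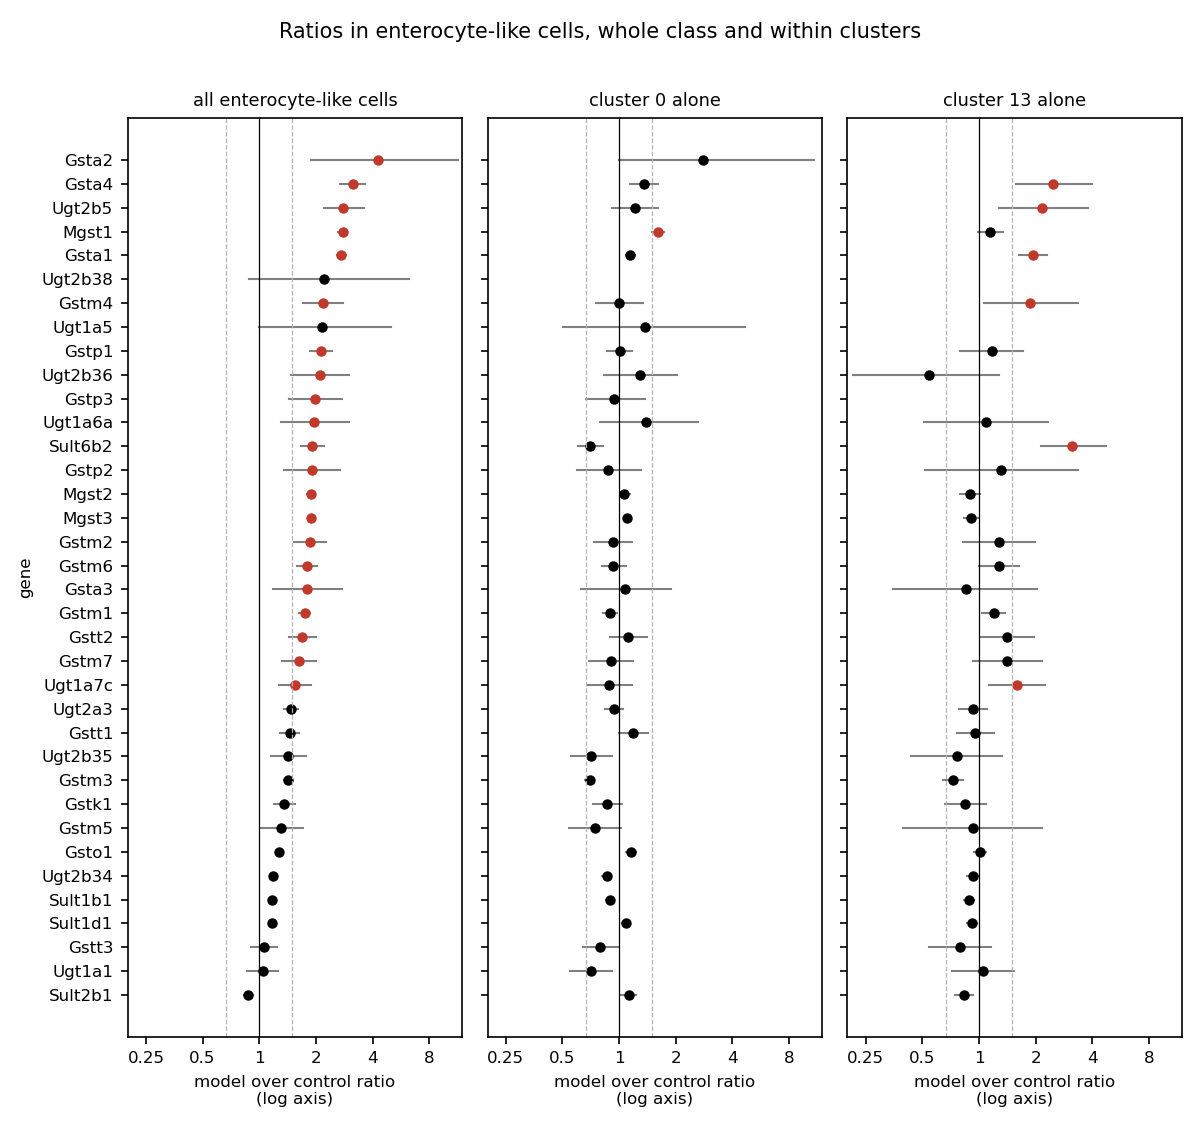
Model over control ratio (x axis, log scale) of the 36 members with at least 20 UMIs in enterocyte-like cells (rows), for the whole class, cluster 0 and cluster 13. Lines are exact binomial intervals, dashed lines mark the limit of 1.5 and its inverse, and red points are counted as higher; a gene under 20 UMIs in a cluster has no point. The 21 red points of the whole class come down to 1 in cluster 0 and 6 in cluster 13.

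Genes that supply the cosubstrates, export the conjugates or regulate the enzymes did not move as a block in enterocyte-like cells. One gene stood out by its ratio. Papss2, a synthase of the sulfate donor PAPS, had 901 CPM in model and 297 CPM in control enterocyte-like cells, a ratio of 3.03 (2.91 to 3.15). Unlike most members, Papss2 was also higher within clusters 0 and 13, with 1060 CPM in model and 673 CPM in control in cluster 0 (1.57, 1.5 to 1.65) and 587 and 215 CPM in cluster 13 (2.73, 2.48 to 3.01). It had 202 CPM in model and 43.3 CPM in control goblet-like cells (4.66, 3.997 to 5.46) and 15.3 and 6.54 CPM in crypt-like cells (2.35, 1.85 to 2.99).

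Of the 11 measured sulfate and PAPS genes, 3 were higher and 1 lower in enterocyte-like cells. Beside the list counts here and in the next paragraph stand 15.5% higher and 9.36% lower of all genes tested in this class. The lists are short, and a count near these shares is no result about a list. After Papss2 the highest ratios were those of the PAPS transporter Slc35b2 (2.01) and the anion exchanger Slc26a3 (1.84), and the lowest those of the sulfate transporter Slc26a2 (0.531), Papss1 (0.843) and Slc26a6 (0.929). For glutathione supply 1 of 7 was higher and 1 lower: Chac2 (1.94), Gsr (1.43) and Gclm (0.961) were highest, and Gss (0.899), Ggt1 (0.801) and Oplah (0.405) lowest. For UDP-glucuronate supply 1 of 7 was higher and 0 lower: Gusb, which cleaves glucuronides (2.03), and the transporters Slc35b1 (1.35) and Slc35d2 (1.30) were highest, and Ugp2 (1.07), Ugdh (1.02) and Slc35b4 (0.787) lowest.

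Of the 6 measured conjugate exporters, 0 were higher and 1 lower: Abcc3 (1.45), Abcc2 (1.16) and Abcc6 (0.925) were highest, and Abcb1a (0.743), Abcg2 (0.690) and Abcc5 (0.468) lowest. Other phase II genes had 4 of 9 higher and 0 lower, with the methyltransferase Tpmt (2.16), the quinone reductase Nqo1 (1.73) and Ephx1 (1.68, 0.995 to 2.91) highest, and Ephx2 (1.29), Gstcd (0.897) and Nat2 (0.831) lowest. Among the regulators, Nfe2l2 had 308 CPM in model and 197 CPM in control (1.56), Ppara had a ratio of 1.502 and Keap1 of 1.47, and Hnf4a (0.770) and Hnf4g (0.748) were among the lowest. Ahr had 10.4 CPM in model and 10.3 CPM in control. In cluster 0 alone Nfe2l2 had 353 CPM in model and 322 CPM in control.

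In crypt stem or transit-amplifying-like cells (823 model and 672 control), the proliferating cells below the villus, few members differed. Of 38 at the minimum, 3 were higher and 0 lower, beside 1.71% higher and 3.92% lower of 13907 genes, with a median log2 ratio of 0.12. Sult1d1 had 222 CPM in model and 131 CPM in control (1.69, 1.60 to 1.79). Gstt1 had 13.1 CPM in model and 7.15 CPM in control (1.83, 1.45 to 2.33), and Sult1a1 had 38 UMIs in model and 10 in control (3.18, 1.56 to 7.16). The count depended on the processing, from 1 of 15 with cells thinned to 1000 UMIs (beside 2.35% higher and 2.75% lower of all genes) to 8 of 38 with each library clustered alone (beside 2.97% higher and 4.43% lower), with 0 members lower in both. Together the members took 0.222% of UMIs in model and 0.185% in control crypt-like cells, less than in enterocyte clusters 0, 13 and 14.

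Unnamed cluster 2 (448 model and 228 control cells), led by Gsdmc4, Gsdmc2 and Car4, had 10 of 36 members higher and 0 lower, beside 2.24% higher and 3.30% lower of all genes. Gstm3 had 92.6 CPM in model and 42.0 CPM in control (2.20, 1.92 to 2.54), Gsta4 28.2 and 13.7 CPM (2.07, 1.61 to 2.67) and Gsta1 72.7 and 46.1 CPM (1.58, 1.37 to 1.82). The others were Gstm1 (1.89), Gstm6 (2.02), Gstm7 (1.78), Gstt1 (1.63), Ugt2b36 (1.61), Ugt2b5 (1.60) and Sult1a1 (27 and 4 UMIs, 3.54). Sult1d1, Mgst1, Mgst2 and Mgst3 were under the limit there. Papss2 had 174 CPM in model and 58.9 CPM in control (2.95, 2.63 to 3.31).

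In goblet-like cells (332 model and 352 control), 15 of 31 members were higher and 0 lower, beside 4.72% higher and 6.12% lower of all genes, with a median log2 ratio of 0.63 against -0.07 over all genes. Gsta1 had 200 CPM in model and 74.5 CPM in control (2.68, 2.36 to 3.05), Gstm3 78.1 and 18.7 CPM (4.17, 3.29 to 5.33) and Sult1d1 231 and 114 CPM (2.02, 1.82 to 2.25). Gsta4, the member with its highest level in this class, had a ratio of 1.54 (1.40 to 1.71). The others were Gstm1, Gstm6, Gstm7, Gstt1, Ugt1a1, Ugt1a7c, Ugt2a3, Ugt2b5, Sult1b1, Sult2b1 and Sult6b2, with ratios from 1.61 (Gstt1) to 4.70 (Ugt2b5, 27 and 7 UMIs).

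Enterocyte markers moved with this result. Summed over the 12 markers, all of them higher in model, they had 12873 CPM in model and 5533 CPM in control goblet-like cells, and none of them was at 0. Without the 8% of cells with the highest doublet scores in each library, the sums were 7025 CPM in 278 model cells and 4763 CPM in 271 control cells. Then, beside 3.38% higher and 2.27% lower of all genes, 4 of 28 members were higher, Gstm6 (3.89), Gstm3 (2.97), Gsta1 (1.89) and Sult1d1 (1.64), and 1 was lower, Gstk1 (0.490, from 14 model and 29 control UMIs), while Papss2 kept a ratio of 3.13 (2.55 to 3.86). The part of enterocyte transcripts in these ratios was not tested further.

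**Figure D4:**
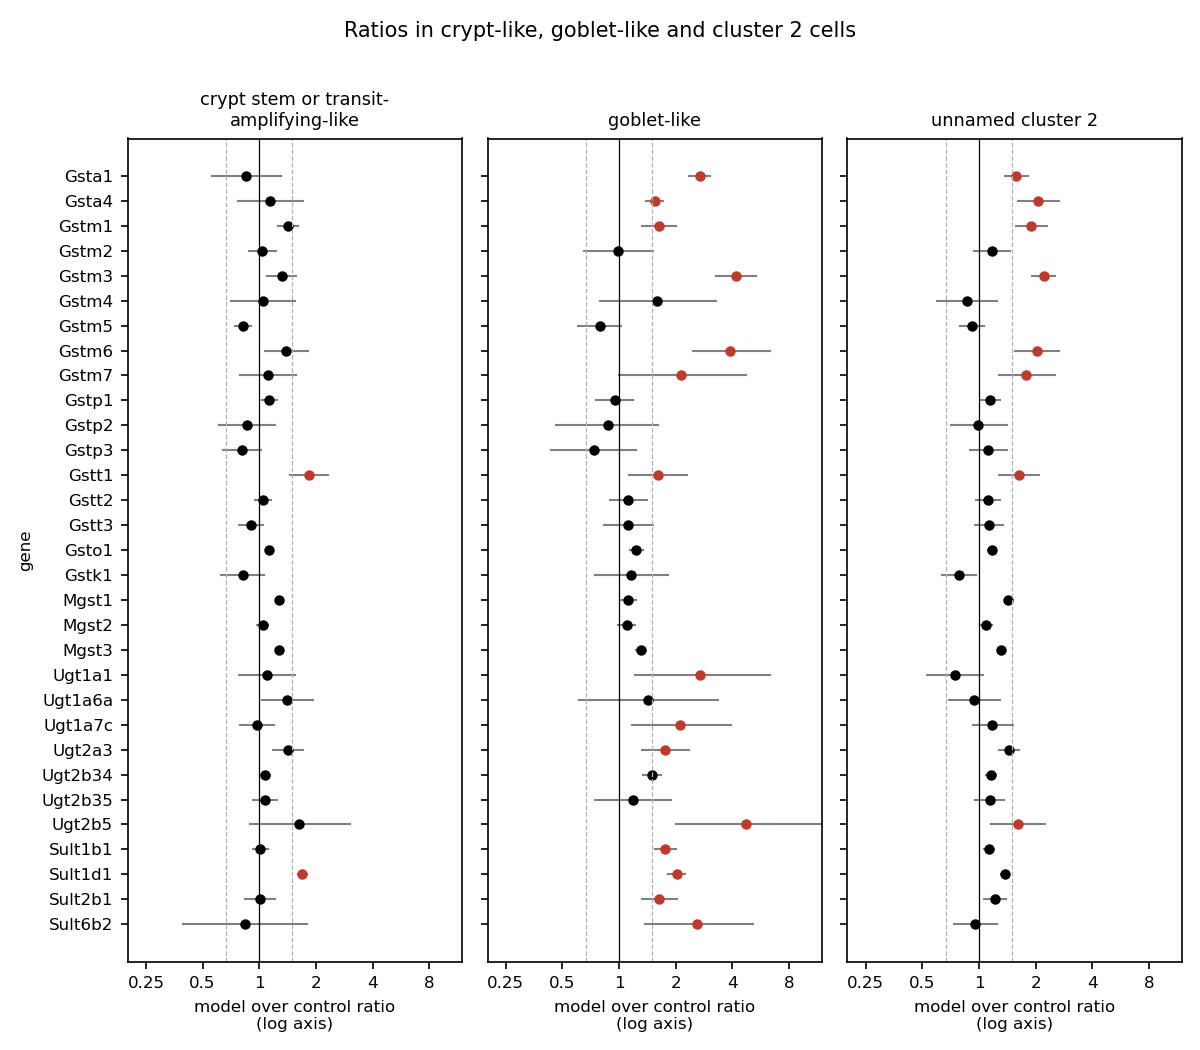
Model over control ratio (x axis, log scale) of the members with at least 20 UMIs in each of crypt stem or transit-amplifying-like cells, goblet-like cells and unnamed cluster 2 (rows are genes by family). Lines are exact binomial intervals, some running past the axis, dashed lines mark 1.5 and its inverse, and red points are counted as higher. Gstt1 is red in all 3 panels, Sult1d1 in crypt-like and goblet-like cells, and the alpha and mu genes Gsta1, Gsta4, Gstm1, Gstm3, Gstm6 and Gstm7 in goblet-like cells and cluster 2.

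Mgst1 was past the limit in the 3 immune classes compared (those of 100 cells or more per library), but with each library clustered alone it was below 1 in T cell-like and plasma cell-like cells. In macrophage or monocyte-like cells (262 model and 273 control) Mgst1 had 63.2 CPM (68 UMIs) in model and 20.98 CPM (23 UMIs) in control, a ratio of 3.01 (1.85 to 5.06). In T cell-like cells (2494 model and 1355 control) it had 33.6 CPM (254 UMIs) in model and 16.6 CPM (77 UMIs) in control, a ratio of 2.03 (1.56 to 2.65), and in plasma cell-like cells (675 model and 503 control) 31.0 CPM in model and 8.76 CPM in control (3.54, 2.49 to 5.16). These levels lie under those of the whole enterocyte-like class, at 403 CPM in model and 145 CPM in control, but in the model library they lie above the 22.7 CPM of enterocyte cluster 18. In crypt-like, goblet-like and cluster 2 cells Mgst1 was under the limit. In classes with fewer than 100 cells in a library, Mgst1 ran both ways: it had 1 UMI in 26 model and 49 UMIs in 47 control plasmacytoid dendritic cell-like cells (0.0637, 0.00158 to 0.372), ratios of 0.539 (0.393 to 0.727) in fibroblast-like and 1.11 (0.600 to 1.995) in blood endothelial-like cells, and one of 3.63 (1.31 to 12.4, from 19 and 5 UMIs) in smooth muscle or pericyte-like cells. The 12 enterocyte markers summed to 2350 CPM in model and 3608 CPM in control macrophage or monocyte-like cells, to 2931 and 3746 CPM in T cell-like cells and to 1426 and 1268 CPM in plasma cell-like cells, and none was at 0. Transcripts of enterocyte genes were thus present in all 3 classes, and their part in the Mgst1 ratios was not tested.

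In macrophage or monocyte-like cells 1 of 12 members was higher and 3 lower, beside 7.18% higher and 5.01% lower of all genes. The 3 were Gstm1, with 14.9 CPM in model and 37.4 CPM in control (ratio 0.397, 0.208 to 0.724), Mgst2, with 12.1 and 24.6 CPM (0.490, 0.232 to 0.983), and Sult2b1, with 8.36 and 23.7 CPM (0.352, 0.145 to 0.776). Each rests on 9 to 41 UMIs per library, and the enterocyte marker sum of this class was lower in model too. Sult1a1, which this class held at a level far above that of enterocytes, had nearly the same level in both libraries.

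In T cell-like cells 2 of 25 members were higher and 0 lower, beside 1.71% higher and 3.59% lower of all genes: Mgst1 and Gsta4, the second with 25 UMIs in model and 1 in control (15.4, 2.51 to 631). In plasma cell-like cells 6 of 17 were higher and 0 lower, beside 5.25% higher and 3.04% lower of all genes: Mgst1, Mgst3 (3.07), Gsta1 (2.999), Gstm1 (2.47), Gstm3 (2.12) and Gsto1 (1.60). Gsta1, Gstm1 and Gstm3 had 33 to 35 UMIs in model and 8 to 12 in control. With each library clustered alone, the log2 ratio of Mgst1 in T cell-like cells was -0.13, and those of the 6 plasma cell genes ran from -1.43 (Gsta1) to -0.0849 (Gstm1), so these calls did not hold.

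Near-identical sequences limit what a single member's count can mean. In GENCODE M21 the 9 Ugt1a genes share 3 exons with the same ends, and 50-base pieces of the last 500 bases of their transcripts were shared in full for Ugt1a1, Ugt1a2, Ugt1a5, Ugt1a6b, Ugt1a8, Ugt1a9 and Ugt1a10, so that 3′ reads of these genes may be split or dropped. Gstp1 shared 75.2% of such pieces with other genes, mostly Gstp2, and Gstp2 88.9%. Gsta1 shared 90.02%, mostly with Gm3776, which is outside the rule and had 47.4 CPM in model and 15.2 CPM in control enterocyte-like cells (3.12, 2.62 to 3.74), a ratio near that of Gsta1. For 40 of the 72 members no such piece occurred in another gene. Only the end of the longest transcript of each member was searched. The 40 include Ugt1a6a and Ugt1a7c, although all 9 Ugt1a genes share 3 exons. The counts of these 2 genes may thus be ambiguous as well.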

How the data were processed

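Per the file headers, the deposited matrices are raw counts of UMIs for each gene in each barcode. The headers name Cell Ranger 7.0.1; the submitters' processing notes give version 4.0 of that tool and the build GRCm39. Which annotation was used, and whether introns were counted, is not given in the sources used here.

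A cell was kept at 500 UMIs and 200 genes or more with a mitochondrial share of 25% or less. The libraries shared 28 barcodes, 12 of them among kept cells. Scrublet called 0 cells in either library, so it had not worked and no doublets were removed; an alternative left out the 8% with the highest scores. Cells scaled to 10000 UMIs were clustered together in scanpy 1.11.5 (anndata 0.12.19, scikit-learn 1.9.0, igraph 0.11.9), without batch correction, from 2000 variable genes that left out the members, 30 components, 15 neighbours and Leiden resolution 1. A name needed at least 3 markers of its class at 2-fold over other cells and detected in 10% or more of its cells. Clusters stayed unnamed when another class led their 10 leading genes, or at low depth without an own marker there.

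UMIs were summed per library and class (CPM), with exact Poisson 95% intervals, an exact binomial interval for ratios and a floor of 3 UMIs. PCR copies are collapsed by the UMIs. The calling of ratios was tested on simulated counts that held counting error only. That test does not cover differences between mice, preparations or the make-up of cell classes. Members were named at 50 CPM and 50 UMIs in a named class of at least 100 cells, or past the 1.5 limit in a class with at least 100 cells in each library; other lists gave their 3 highest and 3 lowest ratios, except that 1 regulator, and the counts over that list, are not reported here. The members and lists were chosen with earlier results of these data known. Promoters came from RefSeq (GRCm38.p6) and shared sequence from GENCODE M21, since no GRCm39 reference was used here; no coordinates were converted.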

Additional observations from a re-analysis of the deposited data

Results flagged for a closer look

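For 3 members the ratio in macrophage or monocyte-like cells was past the limit on the lower side, and that in at least 1 other class past the limit on the higher side. Each difference between classes was not tested, since each class has 1 library per group. Gstm1 had a ratio of 0.397 in macrophage or monocyte-like cells, against 1.75 in enterocyte-like, 1.63 in goblet-like and 2.47 in plasma cell-like cells. The higher ratios depended on the processing. In goblet-like cells Gstm1 had 1.23 (0.953 to 1.60) without the highest doublet scores. With each library clustered alone, its log2 ratio in plasma cell-like cells was -0.0849. In model and control it had 226 and 253 CPM in enterocyte cluster 0, and 169 and 141 CPM in cluster 13. Mgst2 had a ratio of 0.490 in macrophage or monocyte-like cells, against 1.88 in enterocyte-like cells. In model and control it had 495 and 464 CPM in enterocyte cluster 0, and 187 and 209 CPM in cluster 13. Mgst2 was lower in blood endothelial-like cells too (0.186, 0.02105 to 0.773, from 2 model and 19 control UMIs). Sult2b1 had a ratio of 0.352 in macrophage or monocyte-like cells and 1.63 in goblet-like cells. In goblet-like cells it was 1.26 (0.926 to 1.71) without the highest doublet scores. In enterocyte-like cells Sult2b1 was below 1 as well (0.873, 0.827 to 0.921).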

How the results depend on the processing

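No paired analysis was possible because each group has 1 library. In enterocyte-like cells, 21 higher members became 6 at a mitochondrial limit of 10%, 4 in the cluster with the most cells alone (cluster 14), 5 as the equal mean of log2 ratios within clusters, 5 with cluster make-up equalised (chosen after seeing the data) and 8 at a fold limit of 2. Lower members became 3 in the cluster with the most cells, 1 as the equal mean and 2 with make-up equalised. The median log2 ratio was 0.279, 0.254, 0.0919 and 0.0992 under the first 4 of these, 1.14 with cells thinned to 1000 UMIs and 1.2 as the mean CPM over cells. In crypt-like cells, 3 higher members became 8 at a minimum of 1000 UMIs, 8 with each library clustered alone, 5 in the largest cluster, 1 with thinning, 8 as the mean CPM and 1 at a fold of 2, and 0 lower became 1 with make-up equalised and 2 as the mean CPM. In goblet-like cells, 15 higher became 4 (and 0 lower became 1) without the highest Scrublet scores, 3 with thinning and 9 at a fold of 2. Shares over all genes are given above for only some of these settings. For the others, a change in the count of members cannot be told apart from a shift over all genes.

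Some called log2 ratios changed sign. In enterocyte-like cells, the equal mean gave Gsta3 -0.0656, Mgst3 -0.22, Mgst2 -0.23, Ugt2b36 -0.26, Mgst1 -0.0902 and Gstp3 -0.0819. With make-up equalised, Gsta3 had -0.14, Mgst3 -0.0209, Mgst2 -0.074, Ugt2b36 -0.15, Gstp2 -0.13 and Gstp3 -0.12, and in cluster 14 alone Mgst3 had -0.25, Mgst2 -0.71 and Mgst1 -1.16. By construction these 3 settings hold the make-up of clusters alike in both libraries. In goblet-like cells Ugt1a7c had -0.0853 without the highest Scrublet scores and Gstm1 -0.0478 as the mean CPM. With each library clustered alone, Mgst1 in T cell-like cells had -0.13, and in plasma cell-like cells Mgst3 had -1.10, Gstm3 -1.26, Gstm1 -0.0849, Mgst1 -0.83, Gsta1 -1.43 and Gsto1 -0.31. Gsta1 in plasma cell-like cells had -0.79 as the mean CPM, and Gsto1 had -0.18 as the mean CPM and -0.80 with thinning. The cause of these sign changes was not tested in any setting. Letting the members enter the clustering left all 87 values of single members and classes on the same side and within counting error. Depth limits members under 20 UMIs, and the intervals leave out differences between mice and preparations.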
